A study of Rattus norvegicus with 12 samples.

Results

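Genes with a long 3' untranslated region (UTR) of the same length in both arms were selected on the measured lengths themselves. A gene belonged to the set when the deposited table gave a 3' UTR length above 0 in both arms, the control length was 3000 bases or more, and the 2 arms differed by less than 500 bases, with the median taken over entries of a gene name. The rule found 919 genes among the 9294 gene names with both 3' lengths above 0 (9.89%), out of 10584 names in the table. Because pooled lengths of both arms chose these genes, their lengths are described here with no test.

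The 3' UTR is the part of an mRNA between the stop codon and the poly(A) tail. It is the main landing place for microRNAs and for RNA-binding proteins that set the stability, the localization and the translation of the transcript. Neurons are known for using distal poly(A) sites, so many neuronal mRNAs carry long 3' UTRs, and synaptic activity can shift poly(A) site choice or change how fast such transcripts are degraded.

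The cells were primary, neuron-enriched rat hippocampal cultures prepared from Sprague-Dawley embryos at embryonic day 18. Cultures received vehicle (control) or picrotoxin, a blocker of GABA-A receptors that raises network activity, from 18 days in vitro for 48 h, and RNA was taken at 20 days in vitro. Each arm had 3 biological replicates, numbered 3, 10 and 20 in both arms, for polyA RNA-seq and for small RNA sequencing. What the numbers mark is not stated in the labels, and the labels name no allele or transgene.

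In these bulk libraries, fewer cells of a type and less RNA per cell cannot be told apart. The deposited polyA values, normalised read counts per gene, summed to between 12304800 and 12982900 in a library. Of the 919 genes, 896 were paired with a gene of the expression table: 856 by symbol, 32 by symbol regardless of case and 8 through a RefSeq synonym. A further 8 names had several gene identifiers, among them Pde4d, Hivep3 and Rlim, and 15 had no match, among them Kif1b, Myo5a and Ap1g1. Of the 896, 887 reached an FPKM of 1 in at least 1 arm and were tested. The 9 with a level that were not tested were Abcc2, Cd99l2, Col23a1, Fibcd1, Impad1, Lnpep, Mir384, Mir770 and Rad54l2.

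Sequences of 2 kinds are printed because the results touch them: the mature microRNAs of the only microRNA genes in the set, and the one promoter window with a cAMP response element among the genes named here. The microRNA sequences are from RefSeq (GRCr8), 5′ to 3′, with the seed, bases 2 to 8, in capitals.
rno-miR-384-5p: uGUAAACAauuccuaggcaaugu
rno-miR-384-3p: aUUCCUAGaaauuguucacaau
rno-miR-770-5p: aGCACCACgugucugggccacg
rno-miR-770-3p: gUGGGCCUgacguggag
No seed was shared between these 4 mature forms. The miR-384-5p form lies on the minus strand at chrX:74490939-74490961 and miR-770-3p on the plus strand at chr6:134298129-134298145. Mir384 was listed with a 3' length of 20899 bases in both arms and the same figure as its 5' length, and Mir770 with 13908 bases in both arms. A microRNA is not translated and has no UTR of its own, and what these lengths refer to is not stated. Both were listed at an FPKM of 0 in polyA RNA in both arms. In the small RNA libraries miR-384-5p stood at 3437, 2871 and 2730 CPM (counts scaled to the library's microRNA total) in controls 3, 10 and 20 and at 3050, 2766 and 2672 in the picrotoxin libraries of the same numbers. The groups overlapped. The miR-770-3p form had 966, 1022 and 971 CPM in control and 1314, 1058 and 983 in picrotoxin, with all 3 picrotoxin libraries above the control of the same number but the groups overlapping. The miR-770-5p form had 399, 432 and 314 CPM in control and 473, 370.2 and 339 in picrotoxin, lower in picrotoxin in replicate 10 and higher in the other two pairs. The miR-384-3p form had 1217, 1012 and 963 against 1098, 1049 and 1033, lower in replicate 3 and higher in the other two, and the groups overlapped in both forms.

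The promoter window belongs to Kif5c, a neuronal kinesin heavy chain that carries cargo along microtubules, and is shown at chr3:54441254-54441283 (GRCr8, plus strand) with the motif in capitals.
Kif5c: gatctctgcagTGACGTCAccgtaccgagg
The motif searched was the full cAMP response element TGACGTCA, which reads the same on both strands, between 250 bases before and 50 after each RefSeq start. It occurred in 21 of the 676 long stable 3' UTR genes with a promoter sequence (3.11%), in 3.57% of the 6518 promoters of tested genes with both 3' lengths, and in 1.91% of all 24206 promoters. None of the 26 promoters of genes that fell with picrotoxin and none of the 4 promoters of genes that rose held these letters. The median GC content of the windows was 65.0% for long stable 3' UTR genes, 62.0% for tested genes with both lengths and 59.7% for genes with a 3' UTR under 500 bases in both arms.

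The control 3' length had a median of 4111 bases, with quartiles of 3496 and 5314, and the picrotoxin median was 4114. Lengths from 3000 to under 4000 bases accounted for 418 genes (45.5%), those up to 5000 for 216, up to 8000 for 231 and up to 10000 for 32, and 22 genes had 10000 bases or more. The 2 arms had the identical length in 342 genes (37.2%) and lay within 10 bases of each other in 614 (66.8%). The picrotoxin length was longer in 264 genes and shorter in 313, and only 35 differed by more than 100 bases, the extremes being 489 bases shorter and 384 longer. Among all 9294 genes, 36.7% had identical lengths and 62.6% lay within 10 bases, so the share of exact ties was close to that of the whole table.

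At the length threshold, the nuclear receptor gene Nr4a3 (3003 bases in both arms) and Lpin2 (3006 in both) were just inside, and Pex5l (2995), Med1 (2996) and Bach1 (2996 in control, 3176 in picrotoxin) just outside. At the difference threshold, Aff3 (489 bases shorter in picrotoxin), Trps1 (384 longer) and the diacylglycerol kinase gene Dgki (369 shorter) were inside, and Pde12 (518 shorter), Ubn2 (700 shorter) and Zfp397 (780 longer) outside. Of the 988 genes with a control length of 3000 bases or more, 93.0% were stable by this rule. The other 69 comprised 63 that were shorter and 6 that were longer in picrotoxin, a split that the minimum on the control length favours and from which no direction is read. It leaves out 27 genes that went from under 3000 bases in control to 3000 or more in picrotoxin with a difference of 500 bases or more.

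**Figure D1:**
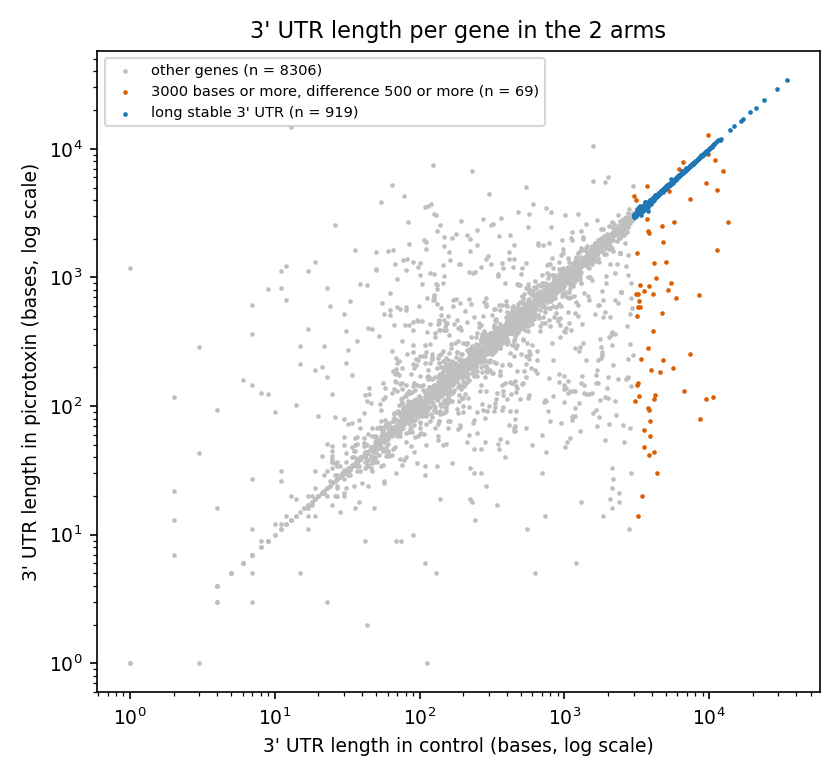
Median 3' UTR length per gene name in control (x axis) and picrotoxin (y axis), both in bases on log scales; each point is a gene name and the colours separate the 919 long stable, 69 long changing and 8306 other genes. The long stable genes lie on the diagonal from 3003 to 34346 bases because the rule placed them there, and most of the 69 long changing genes lie below it, a position that the minimum of 3000 bases on the control length alone also favours.

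The longest 3' UTRs were those of Xkr6 (34346 bases in control, 34351 in picrotoxin), of Purg (29281 and 29268), a purine-rich element binding protein, and of the zinc finger repressor gene Zbtb20 (23907 and 23909). They were followed by the NMDA receptor subunit gene Grin2b (19180 and 19169), the postsynaptic density scaffold gene Lrrc7 (17022 and 17024), the neurotrophin-3 receptor gene Ntrk3 (16546 and 16553), the sodium-calcium exchanger gene Slc8a1 (14910 and 15010) and the GABA-A receptor subunit gene Gabrb1 (12032 and 12020). These 8 genes and the 2 microRNA entries made up the 10 longest. Some table entries have to be read with care. In 17 of the 887 tested genes the 3' length exceeded the whole annotated span of the gene, and in 53 it exceeded 50% of it. Purg was the extreme, with a 3' length of 1539% of a locus of 1903 bases, and the others included Kcna2, Slitrk2 and Lrrtm4. Xkr6 also carried a 5' length of 35310 bases, and 50 long stable 3' UTR genes had a 5' length of 3000 bases or more. The median 5' length was 150 bases over 889 of them with a value and 121 over all 8981 genes with a value.

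Long stable 3' UTRs were spread unevenly over the functional gene lists. Transcription factors, kinases and channels held many, and ribosomal protein and oxidative phosphorylation genes held none. Of 39 transcription and chromatin regulators with both lengths, 21 (53.8%) had one, among them Creb1, Mef2a, Mef2d, Bcl11a, Tcf4 and Dnmt3a. So did 19 of 48 kinases and phosphatases of signalling (39.6%), among them Gsk3b, Mapk8 and Prkca, and 17 of 44 voltage-gated ion channel genes (38.6%), among them Scn8a, Cacna1c and Cacna1e. Further along stood ubiquitin ligases and deubiquitinases (11 of 29), axon guidance and Wnt genes (14 of 37) and postsynaptic scaffold and adhesion genes (16 of 43). Lower shares were found for calcium pumps, exchangers, stores and sensors (8 of 27), cytoskeleton and transport genes (10 of 34), glutamate receptors and auxiliary subunits (10 of 35), presynaptic vesicle and active zone genes (11 of 44) and RNA-binding and translation regulators (10 of 43). Activity-regulated genes, whose transcripts are induced by firing, had 5 of 36, deadenylation and decay factors 3 of 20, and GABA and glycine receptors with inhibitory synapse genes 4 of 26. None of 48 ribosomal protein genes, 43 oxidative phosphorylation genes and 20 cleavage and polyadenylation factors had one, and the median control 3' lengths of these lists were 41.5, 136 and 747.5 bases. The cleavage median lay near the 725 bases of all 9294 genes. With a share of 9.89% over all genes, 0 of 20 is not read as a result. The cleavage factor gene Cpsf6 had 11260 bases in control and 4789 in picrotoxin, so it was long but not stable. The lists were drawn up by hand and not sampled from the genome, so the shares describe these lists.

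**Figure D2:**
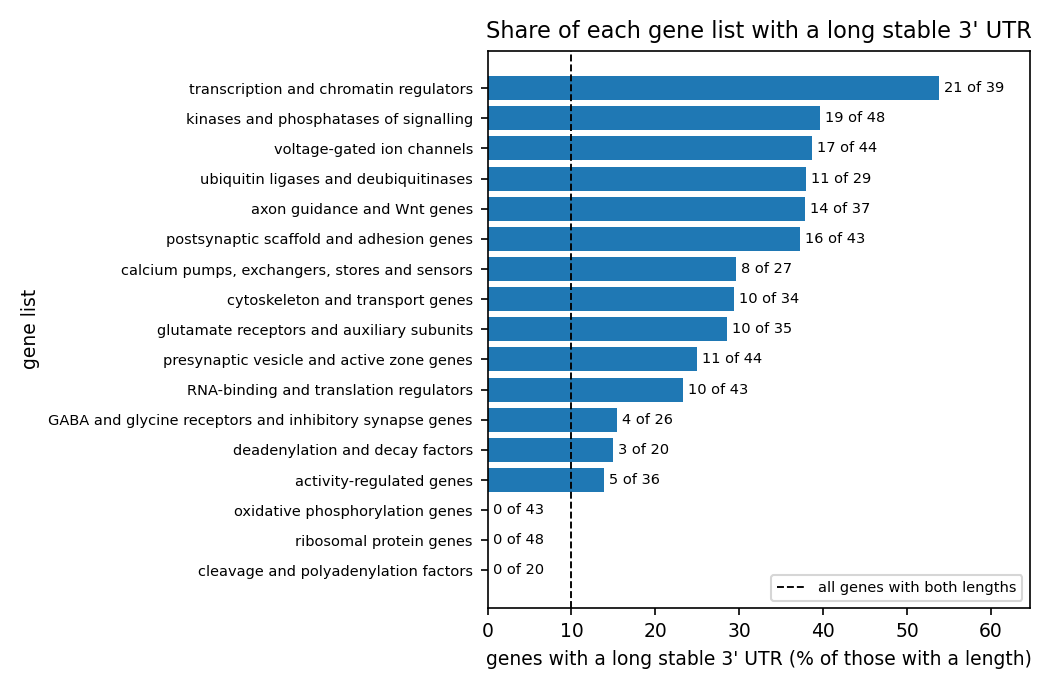
Share of each gene list with a long stable 3' UTR, as a percentage of the listed genes with both 3' lengths above 0; the numbers beside the bars give the counts and the dashed line the 9.89% over all 9294 genes. The shares run from 0 in the ribosomal, oxidative phosphorylation and cleavage lists to 53.8% in the transcription and chromatin list.

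Levels can be compared between genes only per length, and for that the authors' FPKM per arm was used, pooled over replicates and with no error of its own. The median control FPKM was 16.4 over the 887 tested genes with a long stable 3' UTR, 21.5 over tested genes with both lengths, and 25.2 over genes with a 3' UTR under 500 bases. The transcript lengths behind these FPKM are not given in the sources used here. In 17 of the 887 the 3' length exceeded the annotated span of the gene. Whether the FPKM cover the long 3' UTRs was not tested, so no difference in level between the length classes is read from these medians. Among the highest were those of the G-protein gamma subunit gene Gng2 (658 FPKM in control), of the neuronal adhesion gene Negr1 (529.9), of Camk2a, the alpha subunit of calcium/calmodulin-dependent kinase II (378), of the Golgi trafficking GTPase gene Rab6b (319.6), and of Pafah1b1, the dynein regulator LIS1 (319). The FPKM of Gng2 rested on a normalised count of only 199 ± 24.0 (SD, n = 3) in control, against 18419.5 ± 1731 (SD, n = 3) for Rab6b. The transcript length behind the Gng2 FPKM is likewise not given, and its rank is not read as high abundance. Long stable 3' UTR genes took 8.88, 8.94 and 9.37% of the normalised counts in controls 3, 10 and 20, and 8.67, 8.10 and 9.25% in the picrotoxin libraries of the same numbers. In each numbered pair the picrotoxin share was the lower one, and the drop was largest in replicate 10.

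Among genes with a long stable 3' UTR, more were lower than higher in picrotoxin, and the lower ones included the kinase genes Camk2a and Camk4, the calcium pump gene Atp2b4 and the glutamate receptor genes Grin3a and Grm5. By limma on log2(value + 1), two-sided and Benjamini-Hochberg adjusted over all 12046 tested genes with a threshold of 0.05, 7 of 887 were higher (0.789%), beside 1.67% of all tested genes. By the same test 30 of 887 were lower (3.38%), beside 1.62% of all tested genes. Fold changes are on the log2(value + 1) scale, which understates changes of low genes. The median log2 fold change was -0.08 over the 887, -0.01 over all tested genes and 0.03 over genes with a 3' UTR under 500 bases. Since the rule used lengths of the same 2 arms, nothing is read from these counts.

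Libraries with the same number deviated together, and with that number as a block 70 of the 887 were higher, beside 9.65% of all tested genes, and 172 were lower, beside 10.4%. All 37 genes called without the block were called with it. In 334 of the 887 (37.7%) the picrotoxin library was lower in all 3 numbered pairs, beside 27.0% of all tested genes. It was higher in all 3 in 17.4%, beside 25.1%. Stable genes of 2000 to 2999 bases had 38.5% lower and 22.2% higher in all 3, and tested long changing genes 38.5% and 10.8%. With the block these classes had 19.6% and 18.5% lower, beside 19.4% of the 887, and 9.94% and 7.69% higher, beside 7.89%. By limma 5 of the 65 long changing genes were lower and 0 higher. The larger share of falls was thus not particular to the long stable 3' UTR genes. In the authors' deposited table, 104 of the 887 were marked significant by Cuffdiff, 30 higher and 74 lower, beside 7.51% of the 12405 genes given a test there, and all 37 limma calls were among them.

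The counts moved with the omission of single libraries, and so did the shares over all tested genes. Without control 10 the limma test called 0 of the 887 higher and 4 lower, beside 0.125% and 0.116% of all tested genes. Without control 3 it called 1 and 15, beside 1.02% and 0.855%, and without control 20 it called 3 and 14, beside 0.814% and 0.672%. Without picrotoxin 3 it called 1 and 13, beside 0.548% and 0.606%, without picrotoxin 10 it called 1 and 11, beside 0.481% and 0.656%, and without picrotoxin 20 it called 15 and 94, beside 3.14% and 4.28%. In the omission that left 0 higher, 34 genes were higher at an unadjusted p under 0.05, and on all 6 libraries edgeR called 9 higher and 30 lower, beside 1.82% and 1.64% of all tested genes, and DESeq2 24 and 60, beside 3.07% and 3.1%. Of the 37 called genes, Atp2b4, Camk2a, Camk4 and Tmem164 kept the call in each of the 6 omissions.

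**Figure D3:**
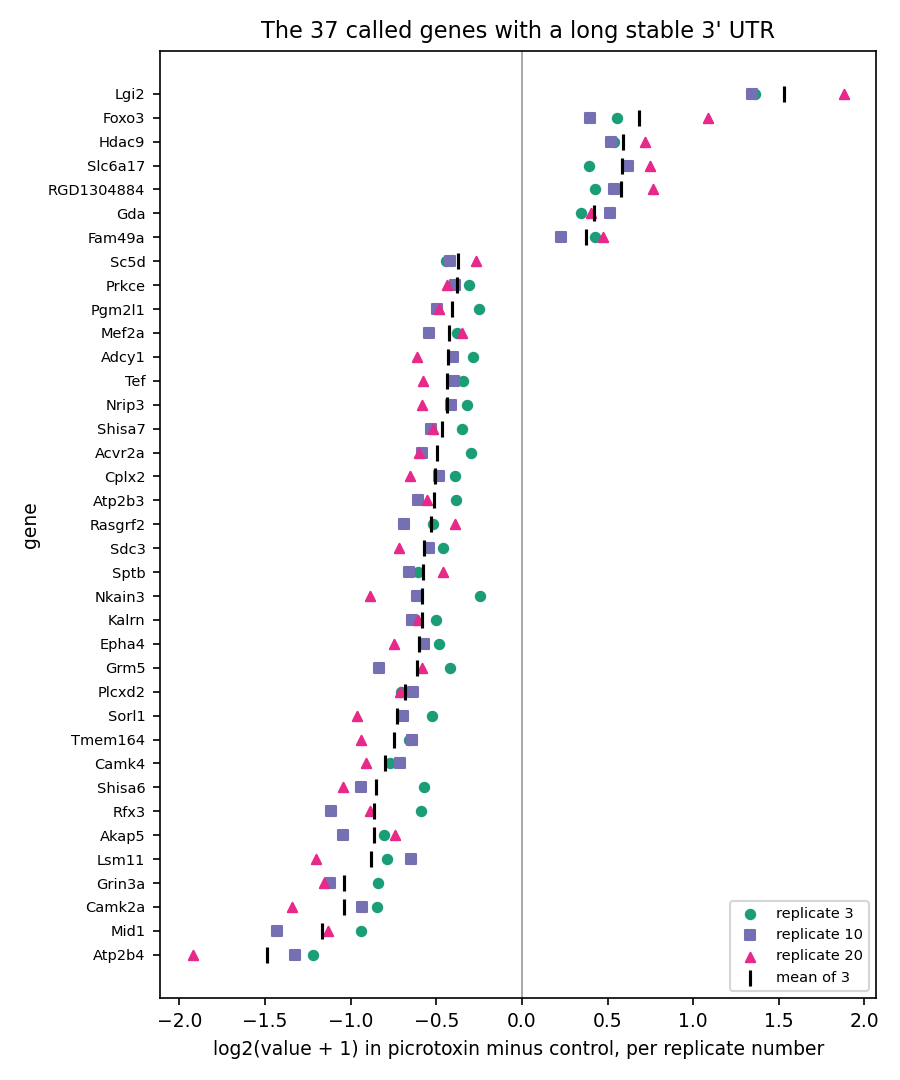
Difference in log2(value + 1) between the picrotoxin and the control library of the same number (x axis) for the 37 called genes with a long stable 3' UTR (y axis); symbols mark replicates 3, 10 and 20 and the black bar their mean. All 3 differences of each gene fall on the same side of 0, from a mean of -1.49 in Atp2b4 to 1.53 in Lgi2.

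Calcium handling genes held the largest fall. Atp2b4 encodes a plasma membrane pump that exports calcium, lies in the authors' coordinates on chromosome 13 from 55157901 to 55204057 (no build is stated), and has a 3' UTR of 4245 bases in both arms. Its normalised counts were 1706, 1869 and 2178 in controls 3, 10 and 20 and 733, 746 and 573 in the picrotoxin libraries. Every picrotoxin library lay far below every control. The log2 fold change was -1.49 ± 0.13 (SE; adjusted p = 0.00171, limma), a 2.81-fold fall. A second pump gene of this family, Atp2b3 (3018 and 2975 bases), fell from 1768 ± 229.7 to 1235 ± 137 (SD, n = 3; adjusted p = 0.0461, limma) with groups that did not overlap. Its call was lost without any 1 of the control libraries, picrotoxin 3 or picrotoxin 10, with adjusted p up to 0.164. The other 6 of the 8 long stable 3' UTR genes in this list did not pass the test, and of the 20 tested genes of the list outside the set 5 were lower and 0 higher. With the block 4 of the 8 were lower and 0 higher, beside 10.4% and 9.65% of all tested genes. Beyond Atp2b4 and Atp2b3 these were Slc8a1 and the sodium-calcium-potassium exchanger gene Slc24a2. Their adjusted p with the block was 0.0102 and 0.0208 (limma). Their log2 fold changes were -0.28 and -0.23, with SEs of 0.16 and 0.11 in the fit without the block.

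Glutamate receptor genes fell in 4 of 10 cases and rose in none by limma, beside 1.62% lower and 1.67% higher of all tested genes, and their median log2 fold change was -0.42 beside -0.01 over all tested genes. Of the 27 tested genes of this list without a long stable 3' UTR, 6 were lower and 1 higher, and the median over the whole list was -0.31. Grin3a, a modulatory NMDA receptor subunit gene with a 3' UTR of 3616 bases, had 253, 280.4 and 367 normalised counts in control and 141, 128 and 164 in picrotoxin, without overlap (log2 fold change -1.04 ± 0.16 SE, adjusted p = 0.0133, limma). Grm5, the metabotropic glutamate receptor 5 gene (3762 bases), had 2197, 2359 and 2404 in control and 1642, 1323 and 1604 in picrotoxin (log2 fold change -0.61 ± 0.10 SE, adjusted p = 0.0147, limma). Shisa6, which encodes an AMPA receptor auxiliary protein (5769 bases), had 271, 285 and 305 in control and 182, 148 and 147 in picrotoxin (log2 fold change -0.85 ± 0.13 SE, adjusted p = 0.0118, limma). In all 3 genes the lowest control exceeded the highest picrotoxin library. Shisa7, of the same protein family (4155 bases), had 1904, 2033 and 2384 in control and 1491, 1409 and 1666 in picrotoxin (adjusted p = 0.0465, limma). The call of Grm5 and of Shisa6 was lost only without control 10 (adjusted p = 0.0875 and 0.0741), that of Grin3a without control 10, picrotoxin 10 or picrotoxin 3 (up to 0.0712), and that of Shisa7 in each omission but that of picrotoxin 20 (up to 0.170).

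The NMDA receptor subunit gene Grin2b, with the longest 3' UTR of this list, had 1171, 960.0 and 1314 normalised counts in control and 938, 618 and 1006 in picrotoxin. The groups overlapped and it did not pass (log2 fold change -0.45 ± 0.18 SE, adjusted p = 0.235, limma). It was called with the block (adjusted p = 0.000265), as were Grin2a (9891 bases, -0.40, adjusted p = 0.00104 with the block) and Neto1 (5844 bases, -0.40, 0.000345). In the fit without the block the SEs of Grin2a and Neto1 were 0.13 and 0.10. With the block 7 of the 10 were called lower and none higher, beside 10.4% and 9.65% of all tested genes, and Grik3, Grm3 and Cacng2 were not called by either fit. DESeq2 called 5 of 10 lower and none higher, beside 3.1% and 3.07% of all tested genes.

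Kinase and phosphatase genes fell in 4 of 19 cases and rose in none by limma, beside 1.62% and 1.67% of all tested genes, and their median log2 fold change was -0.21 beside -0.01. Of the 31 tested genes of this list without a long stable 3' UTR, 2 were lower and 1 higher, and the median over the whole list was -0.17. At an unadjusted p under 0.05, 8 of the 19 were lower and 1 higher, beside 2123 of all 12046 tested genes in either direction. DESeq2 called 5 lower and 0 higher, beside 3.1% and 3.07% of all tested genes. With the block 8 were lower and 1 higher, beside 10.4% and 9.65% of all tested genes. Camk2a, the alpha subunit of the kinase that strengthens active synapses, has a 3' UTR of 3047 bases in both arms and lies on chromosome 18 from 55428527 to 55529045 in the authors' coordinates. Its normalised counts were 5716, 6461 and 6820.3 in control and 3172, 3384 and 2689 in picrotoxin, a 2.06-fold fall without overlap (log2 fold change -1.04 ± 0.10 SE, adjusted p = 0.00248, limma). Camk4, a nuclear calcium/calmodulin-dependent kinase gene with one of the longest 3' UTRs among the called genes (10154 bases in control, 10153 in picrotoxin), had 737, 706 and 753 in control and 432, 430.2 and 399.6 in picrotoxin. The replicates of Camk4 were tight in both arms, and the log2 fold change was -0.80 ± 0.09 (SE, adjusted p = 0.0045, limma).

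Epha4, an ephrin receptor gene of growth cones and spines (3188 bases), fell from 4215 ± 374 to 2787 ± 361 (SD, n = 3; adjusted p = 0.0192, limma), and lost its call without control 10 or picrotoxin 3 (up to 0.116). Prkce, which encodes protein kinase C epsilon (3084 bases), fell from 2162 ± 129 to 1659.8 ± 34.0 (SD, n = 3; adjusted p = 0.0339, limma) and kept its call only without picrotoxin 20 (up to 0.171 otherwise). The remaining kinases and phosphatases did not pass without the block. With it, Ntrk3, Ppp1r9a (5787 bases, -0.46, adjusted p = 0.000111) and Prkcb (3540 bases, -0.21, 0.0333) were among those called lower. Ppm1l, a phosphatase gene (7584 bases, 0.39, 0.00539), was called higher. In the fit without the block the SEs of Ppp1r9a, Prkcb and Ppm1l were 0.13, 0.08 and 0.14. Gsk3b and Pik3r1 were called in neither fit, and neither was Mapk8, the JNK1 gene (4305 bases), which had a log2 fold change of 0.19 ± 0.09 (SE).

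Among scaffold and release genes the calls were Kalrn and Cplx2. Kalrn, the gene of a Rac exchange factor that shapes dendritic spines (6485 bases in both arms), had 2771, 2939 and 3085 normalised counts in control and 1957, 1881 and 2024 in picrotoxin (log2 fold change -0.58 ± 0.08 SE, adjusted p = 0.00754, limma; 0.0630 without control 10, which ended the call). It was the only 1 of 16 scaffold and adhesion genes with a long stable 3' UTR that was called, and their median was -0.19; of the other 31 tested genes of that list 3 were lower and 0 higher. Cplx2, the complexin 2 gene of the release machinery (4110 bases), had 2157, 2379 and 2646 in control and 1648, 1700.0 and 1680.0 in picrotoxin (log2 fold change -0.51 ± 0.09 SE, adjusted p = 0.019, limma; up to 0.110 with the call lost without control 10, control 20, picrotoxin 10 or picrotoxin 3). It was the only call among 11 presynaptic genes, whose median was -0.12; of the other 35 tested genes of that list 0 were lower and 1 higher. Both groups of both genes were apart. With the block 5 of the 16 scaffold genes were lower and 1 higher, and 2 of the 11 presynaptic genes were lower. Over all tested genes the block gave 10.4% lower and 9.65% higher. The giant active zone genes Bsn (4035 bases, -0.12 ± 0.10 SE) and Pclo (9638 bases, 0.04 ± 0.23) did not pass in either fit.

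None of the 17 voltage-gated channel genes with a long stable 3' UTR passed limma without the block, and their median log2 fold change was -0.15. Of the other 30 tested genes of that list 4 were lower and 0 higher. At an unadjusted p under 0.05, 3 of the 17 were lower and 0 higher, beside 2123 of all 12046 tested genes in either direction. DESeq2 called 2 lower, beside 3.1% of all tested genes, and edgeR 0. Limma with the block called 5 of the 17 lower, beside 10.4% of all tested genes. These included Scn8a (5223 bases, -0.51 ± 0.12 SE), Cacna1e, Cacna1c and Cacna2d1. Cacna2d1, an auxiliary calcium channel subunit gene, had the highest control FPKM of the 17. Its normalised counts were 3243, 3159 and 3307 in control and 3074, 2401 and 2959 in picrotoxin (adjusted p = 0.319, limma). Picrotoxin 10 was the lowest by a wide margin. Scn2b, a sodium channel beta subunit gene, had 523, 648 and 566 against 525, 557 and 529, and the groups overlapped (log2 fold change -0.10 ± 0.11 SE, adjusted p = 0.699, limma).

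The inhibitory synapse list had 4 long stable 3' UTR genes and no limma call among them, and of the other 22 tested genes of that list 1 was higher and 0 lower. At an unadjusted p under 0.05, 1 of the 4 was lower and 0 higher, beside 2123 of all 12046 tested genes in either direction. None of the 4 was called by DESeq2 or edgeR. With the block 1 of the 4 was higher and 1 lower, beside 9.65% and 10.4% of all tested genes. Gad2, a GABA-synthesizing enzyme gene (3377 bases), had 3829, 3779 and 5788 against 4599, 4683 and 8499, so replicate 20 was high in both arms and the 2 arms overlapped (adjusted p = 0.48, limma). With the block, which compares libraries of the same number, Gad2 was the higher one (log2 fold change 0.38, adjusted p = 0.000469).

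RNA-binding and translation regulators, 10 genes with a median of -0.24, had no limma call, nor had the other 41 tested genes of that list. At an unadjusted p under 0.05, 5 of the 10 were lower, beside 2123 of all 12046 tested genes in either direction. DESeq2 called 1 lower, beside 3.1% of all tested genes, and edgeR 0. With the block 6 of the 10 were lower, beside 10.4% of all tested genes. Celf2, a splicing and stability regulator gene (7443 bases in control, 7483 in picrotoxin), had 2441, 2523 and 2834 in control and 2031, 1965 and 2276 in picrotoxin, with no overlap (log2 fold change -0.31 ± 0.09 SE, adjusted p = 0.102, limma; 0.00117 with the block). Celf5 of the same family (3114 bases) had 3749, 3975 and 4405 against 3133, 3195 and 3801, with overlap (adjusted p = 0.198, limma; 0.00426 with the block). The others lower with the block were Celf1, Elavl3, Cpeb4 and Eif2c1, the Argonaute 1 gene. Elavl1, whose protein binds AU-rich elements (4146 bases, -0.03 ± 0.10 SE), and Tnrc6b, a partner of Argonaute in microRNA silencing (11423 bases in control, 11723 in picrotoxin, -0.19 ± 0.11), did not pass in either fit. The 3 deadenylation and decay genes Cnot6, Cnot6l and Dcp1a had log2 fold changes of 0.02 ± 0.10, 0.04 ± 0.14 and -0.18 ± 0.18 (SE), with no call by limma, DESeq2 or edgeR and none at an unadjusted p under 0.05.

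Transcription and chromatin genes moved both ways, with 2 higher and 1 lower of 21 by limma and a median of -0.11, and 0 higher and 2 lower among the other 27 tested genes of the list. With the block 2 of the 21 were higher and 4 lower, beside 9.65% and 10.4% of all tested genes, the lower ones being Mef2a, Zbtb20, Nfib and Zeb2. Foxo3, a forkhead factor gene of stress and growth-factor signalling (4440 bases in both arms), had 158, 183 and 147 normalised counts in control and 232, 242 and 314 in picrotoxin (log2 fold change 0.68 ± 0.15 SE, adjusted p = 0.0425, limma). Hdac9, a class IIa histone deacetylase gene (5068 bases in control, 5057 in picrotoxin), had 1445, 1435 and 1679 against 2101, 2055 and 2761 (0.59 ± 0.12 SE, adjusted p = 0.0328, limma). Mef2a, an activity-dependent factor gene whose protein class IIa deacetylases repress (3542 bases in control, 3383 in picrotoxin), fell from 1969.8 ± 65.9 to 1470.3 ± 97.3 (SD, n = 3; adjusted p = 0.0271, limma). No control library overlapped a picrotoxin library in these 3 genes. Foxo3 and Mef2a kept their calls only without picrotoxin 20, and Hdac9 only without picrotoxin 20 or control 20, with adjusted p up to 0.129, 0.164 and 0.169. Creb1, the gene of the factor that binds cAMP response elements (5463 bases, -0.08 ± 0.17 SE), did not pass in either fit.

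Axon guidance and Wnt genes (14, median -0.22), ubiquitin genes (10 tested, median -0.17) and cytoskeleton and transport genes (8 tested, median -0.27) had no limma call. Among the other tested genes of these lists, 1 of 27 was lower and 1 higher, 0 of 24 were called, and 5 of 29 were lower and 0 higher. At an unadjusted p under 0.05 the long stable 3' UTR genes of these lists had 3, 3 and 4 lower and none higher, beside 2123 of all 12046 tested genes in either direction. With the block 5, 4 and 6 were lower, beside 10.4% of all tested genes, and none higher. DESeq2 called 1, 0 and 2 lower, beside 3.1% of all tested genes, and edgeR none. Apc, a beta-catenin destruction complex gene (3234 bases), had 8722, 8379.9 and 9625 in control and 6995, 4937 and 7875 in picrotoxin, with picrotoxin 10 the lowest (adjusted p = 0.14, limma; 0.00112 with the block). Fzd3, a Wnt receptor gene (9202 bases), had 1120.2, 982 and 1089 against 1036, 712 and 919, with overlap (adjusted p = 0.342, limma; 0.0138 with the block). Map1b, a microtubule-associated protein gene (4288 bases), had 25053, 25052 and 35456 against 21415, 18479 and 31230.3, so replicate 20 was highest in both arms (adjusted p = 0.508, limma; 0.00386 with the block). Ube3a, the ubiquitin ligase gene of Angelman syndrome (6790 bases in control, 6830 in picrotoxin), had 2170.2, 2139 and 2131 against 2284, 1768 and 2107, with picrotoxin 10 apart from the rest (log2 fold change -0.07 ± 0.10 SE, adjusted p = 0.788, limma). Usp46, a deubiquitinase gene (3269 bases), stood at -0.09 ± 0.09 and Kif5c at -0.04 ± 0.10 on the log2 scale (SE), neither called in either fit.

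Among 5 activity-regulated genes with a long stable 3' UTR none was called by limma, edgeR or DESeq2, and the median log2 fold change was 0.26. At an unadjusted p under 0.05, 1 of the 5 was higher, beside 2123 of all 12046 tested genes in either direction. Of the other 37 tested genes of that list 4 were higher and 2 lower by limma. The neuronal pentraxin receptor gene Nptxr (3006 bases) had 14202, 13291 and 15082 in control and 14115, 13988 and 14709 in picrotoxin, with full overlap (0.01 ± 0.07 SE, adjusted p = 0.967, limma). Nr4a3, an immediate early nuclear receptor gene, had 3278, 3485 and 5194 against 2938, 3061 and 4143, again with replicate 20 high in both arms (adjusted p = 0.597, limma; 0.015, lower, with the block). Nptx1, a secreted pentraxin gene that clusters AMPA receptors (3773 bases), was called higher with the block (log2 fold change 0.34, adjusted p = 0.00245). Its SE in the fit without the block was 0.10.

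Other genes with large falls belonged to none of the lists. Mid1, a microtubule-associated ubiquitin ligase gene (3628 bases), had 133, 199 and 127 normalised counts in control and 69.0, 73.1 and 57.5 in picrotoxin (log2 fold change -1.17 ± 0.20 SE, adjusted p = 0.0167, limma). Lsm11, a component of the U7 particle that processes histone mRNA ends (5180 bases), had 2163, 2050.2 and 1983 against 1251, 1308 and 859.9 (-0.88 ± 0.15 SE, adjusted p = 0.0154, limma). Akap5, which encodes an anchor for kinases and calcineurin at the postsynaptic membrane (4179 bases), had 721, 782 and 969.6 against 412, 379 and 578 (-0.86 ± 0.17 SE, adjusted p = 0.0255, limma). All 3 genes were separated between the arms, and picrotoxin 20 was the lowest library for Mid1 and Lsm11 but the highest of its arm for Akap5. Rfx3, a factor gene for cilium formation (7210 bases in control, 7221 in picrotoxin), had 482, 555 and 498 against 319.8, 256 and 269 (-0.86 ± 0.12 SE, adjusted p = 0.00806, limma). Rfx3 lost its call only without control 10 (0.0638), Lsm11 without control 10 or control 3 (up to 0.0824), Mid1 without control 10, picrotoxin 10 or picrotoxin 3 (up to 0.0824), and Akap5 in 4 of the 6 omissions (up to 0.107).

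The remaining genes that fell had log2 fold changes between -0.75 and -0.38. Tmem164 (4079 bases) had the largest, at -0.75 ± 0.10 (SE, adjusted p = 0.00806, limma), with 739.6, 671 and 782 in control and 468, 429 and 407 in picrotoxin. The others were Sorl1, a sorting receptor gene for amyloid precursor protein, Adcy1, a calmodulin-stimulated adenylyl cyclase gene, Rasgrf2, a calcium-responsive Ras exchange factor gene, Acvr2a, an activin receptor gene, Sdc3, a heparan sulfate proteoglycan gene, Sptb, a beta spectrin gene, Tef, a clock-output factor gene, Sc5d, a cholesterol synthesis enzyme gene, Pgm2l1, Plcxd2, Nkain3 and Nrip3. These names fall outside the rule for named genes and are given to complete the count. Nkain3 had the longest 3' UTR of the 30, 10840 bases in control, and its log2 difference was -0.25 in replicate 3, -0.61 in replicate 10 and -0.89 in replicate 20.

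The 7 genes that rose had 3' UTRs of 3507 to 5068 bases. Lgi2, of a family of secreted leucine-rich proteins linked to epilepsy (4413 bases in both arms), had 484, 465 and 673 normalised counts in control and 1246, 1182 and 2479 in picrotoxin, a 2.89-fold rise (log2 fold change 1.53 ± 0.26 SE, adjusted p = 0.0163, limma). Replicate 20 was the highest of both arms, and the lowest picrotoxin library exceeded the highest control. Slc6a17, a vesicular amino acid transporter gene (3729 bases), had 8441, 7494 and 8889.9 against 11072, 11495 and 14935 (0.59 ± 0.12 SE, adjusted p = 0.028, limma). Gda, the guanine deaminase gene also known as cypin (3846 bases), had 2280.2, 2002 and 2166 against 2898, 2861 and 2859.9, with tight picrotoxin libraries (0.42 ± 0.08 SE, adjusted p = 0.022, limma). RGD1304884 (4061 bases) rose from 1991 ± 109.5 to 2989 ± 473 and Fam49a (3507 bases) from 2287 ± 34.2 to 2971 ± 243 (SD, n = 3; adjusted p = 0.0255 and 0.0417, limma). Lgi2 lost its call without control 10 or control 3 (up to 0.0875), and the other 4 in at least 4 of the 6 omissions (up to 0.190, for Fam49a).

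The genes with the very longest 3' UTRs were not called without the block. Xkr6 had 71.0, 60.2 and 89.0 normalised counts in control and 77.8, 43.9 and 140.2 in picrotoxin, and Purg 106, 84.5 and 114 against 95.3, 64.7 and 122. In both genes replicate 10 was lowest and replicate 20 highest in each arm, and the arms overlapped (log2 fold change 0.11 ± 0.36 and -0.15 ± 0.24 SE, adjusted p = 0.917 and 0.82, limma). Zbtb20 had 222, 235 and 319 against 193, 121 and 210.3, with arms that did not overlap (-0.58 ± 0.22 SE, adjusted p = 0.197, limma; 0.00299 with the block). Lrrc7 had 838, 857 and 1192 against 623, 523 and 887, with overlap (-0.52 ± 0.20 SE, adjusted p = 0.198, limma; 7.8e-05 with the block). Ntrk3 and Slc8a1 were also called lower with the block (adjusted p = 0.00464 and 0.0102), Gabrb1 was not (0.212). In Ntrk3, Slc8a1, Gabrb1, Zbtb20, Grin2b and Lrrc7 picrotoxin 10 was the lowest of the 6 libraries.

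Of the genes with the highest control FPKM, Gng2, Rab6b and Pafah1b1 were not called in either fit. Their log2 fold changes were -0.02 ± 0.13, -0.09 ± 0.09 and -0.15 ± 0.07 (SE). The FPKM of Gng2 rested on few counts, as given above. Negr1 had 1965, 2193 and 2271 in control and 1733, 1503 and 1665 in picrotoxin, without overlap (-0.39 ± 0.09 SE, adjusted p = 0.0528, limma; 0.000654 with the block). Dcx, the gene of the microtubule-associated protein doublecortin, which the study followed as a target, has a stable 3' UTR of 7653 bases in control and 7633 in picrotoxin. It had 6273, 6272 and 6102 normalised counts in control and 5488, 4661 and 4453 in picrotoxin, so that all picrotoxin libraries were lower (-0.36 ± 0.09 SE, adjusted p = 0.0616, limma; 0.000616 with the block). The RNA-binding protein genes of the Rbfox family did not meet the rule, at control 3' lengths of 2667 bases for Rbfox1, 1290 for Rbfox3 and 260 for Rbfox2.

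The picrotoxin difference was set out by 3' length among genes whose 2 arms differed by less than 500 bases. The share called lower by limma was 0.552% of 1993 genes under 250 bases, 1.97% from 500 to under 1000 and 2.67% from 2000 to under 3000. Among the long stable 3' UTR genes it was 3.68% of 408 from 3000 to under 4000 bases, 2.42% of 207 from 4000 to under 5000, 3.15% of 222 from 5000 to under 8000 and 6.00% of 50 at 8000 or more, the last being 3 genes. The shares called higher in the 4 classes of 3000 bases or more were 0.735, 1.45, 0.450 and 0%, the 0 being of 50 genes of which 2 were called higher with the block. In the classes under 3000 bases the shares called higher ran from 1.31% to 1.97%. The median log2 fold change went from 0.03 under 250 bases to -0.07 from 3000 to under 4000 and -0.15 at 8000 or more. The share called lower also differed by level, with the genes split at their median control FPKM of 22.1. At 3000 bases or more it was 5.98% of 351 genes at or above that FPKM and 1.68% of 536 under it. From 500 to under 3000 bases it was 3.08% of 2107 and 1.48% of 2094, and under 500 bases 1.12% of 1782 and 0.870% of 1610. The differences between these shares were not tested.

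**Figure D4:**
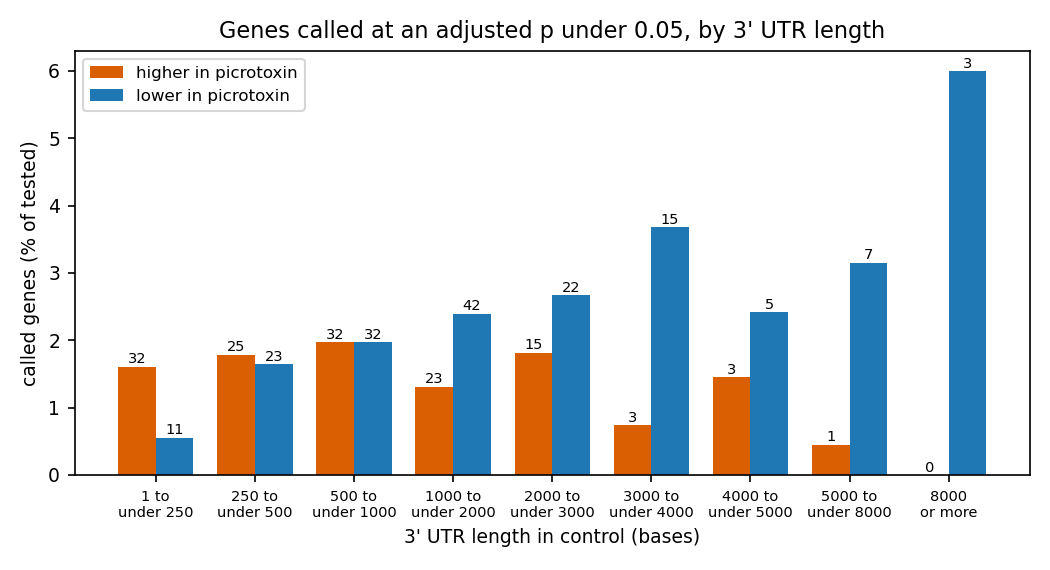
Percentage of tested genes called higher or lower in picrotoxin by limma (adjusted p under 0.05), by control 3' UTR length in bases, for genes whose 2 arms differed by less than 500 bases; numbers above the bars are gene counts. The share called lower is 0.552% in the shortest class and 6.00% (3 of 50 genes) in the longest.

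The libraries differed in how level followed 3' length, also within an arm. For the genes with a long stable 3' UTR, the median of a gene's log2 level minus its mean over the 6 libraries was -0.01, 0.01 and 0.11 in controls 3, 10 and 20 and -0.04, -0.15 and 0.09 in the picrotoxin libraries. Picrotoxin 10 was the low library, and both libraries of replicate 20 were high. At 8000 bases or more these medians reached 0.19 in control 20 and -0.34 in picrotoxin 10, whereas under 250 bases the same 2 libraries stood at -0.07 and 0.08. By numbered pair, the median log2 difference of the 887 genes was -0.04 in replicate 3, -0.18 in replicate 10 and -0.01 in replicate 20. Without picrotoxin 10 the median log2 fold change of the 887 was -0.02 in place of -0.08, and that of the 50 genes at 8000 bases or more was 0.01 in place of -0.15. Without picrotoxin 20 these were -0.14 and -0.28, and without replicate 10 in both arms -0.03 and -0.02. What sets picrotoxin 10 apart was not tested.

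**Figure D5:**
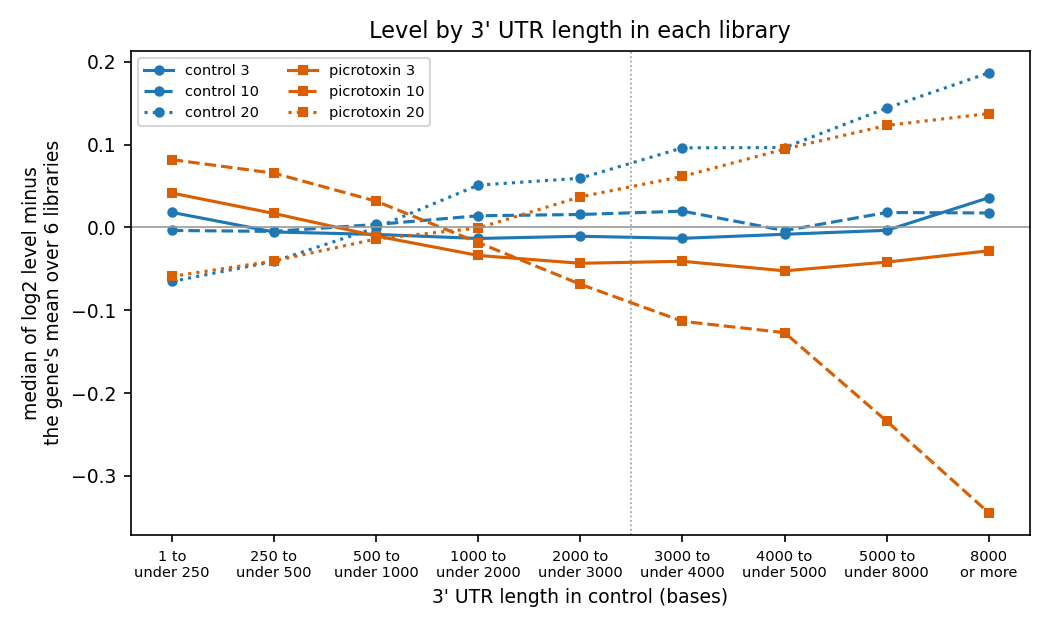
Median over genes of log2(value + 1) in a library minus the gene's mean over the 6 libraries (y axis), by control 3' UTR length in bases (x axis); blue lines are controls, orange lines picrotoxin, line styles mark replicates 3, 10 and 20, and the dotted vertical line separates lengths under and from 3000 bases. At 8000 bases or more the libraries spread from -0.34 in picrotoxin 10 to 0.19 in control 20.

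Marker genes of other cell types were measured beside these results. Over 9 excitatory neuron markers found, the summed normalised counts ranged from 26834 to 28649.6 in control and from 17629.4 to 22395 in picrotoxin. Camk2a, which is in that list, accounted for 5716 to 6820.3 of the control sums and 2689 to 3384 of the picrotoxin sums. By limma 1 of the 9 was called higher and 1 lower, beside 1.67% and 1.62% of all tested genes. Their median log2 fold change was -0.24, beside -0.01 over all tested genes. The 12 inhibitory neuron markers, Gad2 among them, summed to 20529.5 to 30817.2 and 22224.8 to 36160.4, the 10 astrocyte markers to 5664 to 7701 and 4839 to 6960.0, and the 10 oligodendrocyte lineage markers to 717 to 842 and 735 to 855. All 10 microglia markers were under an FPKM of 1 in both arms, with sums of 1.80 to 4.24 in control and 6.27 to 13.6 in picrotoxin. The part of cell composition in the differences of the long stable 3' UTR genes was not tested.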

How the data were processed

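The deposited files gave, per the file headers, 5' and 3' UTR lengths in bases per arm (pooled over replicates; the sources used here give neither calling method nor build), normalised polyA values per library (a signal scaled by the authors), and a differential table with the authors' FPKM per arm and Cuffdiff q-values. Named in the submitters' processing notes are bedtools 2.22.1, Cuffnorm and Cuffdiff, Cufflinks 2.2.1, and STAR 2.3.1z12. Deposited small RNA counts per library, from 7730220 to 10051500 in all, were turned into CPM over all listed microRNAs as a description added after the data had been seen; which tool made them was not given in the sources used here.

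The genes and gene lists were chosen with earlier results of these data known. Levels were tested with limma 3.58.1 in R 4.3.3 (trend and robust) on log2(value + 1), 3 control against 3 picrotoxin libraries, over 12046 genes with an FPKM of 1 or more in an arm, with Benjamini-Hochberg adjustment. Libraries of the same number deviated together (correlations of 0.405, 0.391 and 0.547 for numbers 3, 10 and 20), so the numbers were taken to pair the samples from the data, the labels not saying so, and block values are given for lists and genes where they change a call. In each library at least 99.9% of low values were whole multiples of 1 step (within 0.1 step). Rounded to whole fragments, between 11895715 and 13944781 a library, edgeR 4.0.16 called 417 genes and DESeq2 1.42.0 744, beside 396 by limma. The limma fit without the block was tested on simulated counts with known changes, in which the replicate number had no effect.

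The genes named were the 10 longest, the 6 with the highest control FPKM, the 8 largest rises and falls among called genes with groups that did not overlap (7 rises existed), up to 4 called genes per list or otherwise the 2 highest by FPKM, those next to each threshold, and the Rbfox genes, Atp2b4 and Dcx. Other names are list members given to show what a count holds. Without the block, each p sets the difference of the arms against the spread between the 3 libraries of an arm, or those left after an omission. With the block, the spread is the one left within numbered pairs. In the fits with trend and robust, limma moderated this spread toward a trend over all tested genes, for p and SE alike. Every SE given is from the fit without the block. Some genes that this rule names are not reported here.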

Additional observations from a re-analysis of the deposited data

How the results depend on the processing

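The number of genes with a long stable 3' UTR was 919, and 501 with a minimum length of 4000 bases; other length choices moved it by less than 1.5 times. In place of 7 higher and 30 lower, DESeq2 gave 24 and 60 (3.07% and 3.10% over all tested genes), and limma without trend and robust 0 and 9 (0.780% and 0.540%). That limma fit had 49 of the set higher and 125 lower at an unadjusted p under 0.05, beside 2032 of all 12046 in either direction. A threshold of 0.01 on the adjusted p gave 0 and 6 (0.291% and 0.299%). The main fit had 55 higher and 145 lower at an unadjusted p under 0.05, beside 2123 of all 12046. A minimum length of 4000 bases left 479 tested genes, 4 higher and 15 lower. These were 0.835% and 3.13% of the 479, beside 0.789% and 3.38% of the 887. With the replicate block the counts were 70 and 172 (9.65% and 10.4% over all tested genes). Leaving out 1 library gave 0 to 15 higher and 4 to 94 lower, with 0.125% to 3.14% and 0.116% to 4.28% over all tested genes, so the counts moved with those of all genes. Leaving out both libraries of a number, chosen after seeing the data, gave 0 and 0 without replicate 3 and without replicate 10, each with 0 calls among all tested genes. At an unadjusted p under 0.05, 32 were higher and 102 lower without replicate 3, beside 1327 of all 12046 in either direction. Without replicate 10 these were 35 and 65, beside 1046. Without replicate 20 the counts were 23 and 102 (4.04% and 4.94% over all tested genes). edgeR, both other pseudocounts, both other FPKM filters and median-ratio rescaling stayed within 1.5 times of both counts. The median log2 fold change of the tested genes of the set stayed negative, from -0.14 to -0.02 over the single omissions. The -0.14, without picrotoxin 20, stood beside -0.007 over all tested genes. The -0.02, without picrotoxin 10, stood beside -0.008, so the distance from all genes was small there.

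No called gene that is named changed sign. Uncalled genes that did over the single omissions ranged from -0.31 to 0.52 (Xkr6), -0.36 to 0.10 (Purg), -0.083 to 0.075 (Gng2), -0.022 to 0.064 (Cnot6), -0.084 to 0.15 (Cnot6l), -0.15 to 0.031 (Ube3a), -0.12 to 0.043 (Kif5c) and -0.037 to 0.054 (Nptxr). Leaving out a number in both arms gave -0.16 for Xkr6 and 0.080 for Gng2 without replicate 20, -0.019 for Cnot6 and -0.036 for Cnot6l without replicate 3, and 0.029 for Ube3a, 0.016 for Kif5c and -0.022 for Nptxr without replicate 10. The cause was not tested. Depth was not low for most named genes. Xkr6 and Purg had libraries under 100 normalised counts in both arms and Mid1 in picrotoxin only, and these carry the larger counting error.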
